A study of Mus musculus with 30 samples.

Results

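The comparison set mouse embryonic stem (ES) cells labelled late G1 against cells labelled early G1, both kept in doxycycline (DOX), by RNA-seq counts over exons and over introns. It rests on 6 of the 18 RNA-seq libraries and of the 30 libraries in all: late G1 DOX replicates 1 to 3 and early G1 DOX replicates 1 to 3, with same-numbered libraries paired. All 6 came from EKOiE-Ccna-Gfp cells, a line of strain 129/Ola in which Esrrb is knocked out and a DOX-inducible Esrrb transgene replaces it, and which carries a Ccna2-Gfp reporter. The cells were grown in serum with LIF, the cytokine that keeps ES cells undifferentiated, and were sorted by their GFP fluorescence. The other RNA-seq groups held 3 libraries each: G2 with DOX, and late G1, early G1 and G2 after 24 h without DOX. Every group therefore shares the knockout, the transgene and the reporter. Whether replicates were grown separately is not stated in the labels, and p-values measure no more than the spread between these samples.

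G1 is the phase between mitosis and DNA replication. Cyclin A2, the product of Ccna2, is degraded from mitosis on through the anaphase-promoting complex and accumulates again as cells enter S phase, so a cyclin A reporter is dim in early G1 and brighter towards G2. E2F factors, released from the retinoblastoma family of repressors, switch on the genes of DNA replication around the passage into S phase. Genes of mitosis are switched on later, in G2, often through promoters with CCAAT boxes and a cell cycle homology region (CHR). ES cells are known for a short G1 with much cyclin E activity.

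The promoters of 6 cell cycle genes are shown because the results turn on these 2 groups. They are Top2a (topoisomerase II alpha, which untangles sister chromosomes), Cdk1 (the kinase that drives mitosis) and Plk1 (a further mitotic kinase) for mitosis, and Ccne1 (cyclin E1), Cdc6 (which loads the replicative helicase) and Mcm5 (a subunit of that helicase) for the passage into S phase. Each runs from 250 bases before to 50 after the RefSeq start of the gene (assembly GRCm38.p6), 5′ to 3′ on the gene's strand. Capitals mark CCAAT, the CHR (TTTGAA) and an E2F site (TTTGGCGC, TTTCCCGC, TTTGCCGC or TTTCGCGC), each searched on both strands.
Top2a (chr11:99024140-99024439, minus strand): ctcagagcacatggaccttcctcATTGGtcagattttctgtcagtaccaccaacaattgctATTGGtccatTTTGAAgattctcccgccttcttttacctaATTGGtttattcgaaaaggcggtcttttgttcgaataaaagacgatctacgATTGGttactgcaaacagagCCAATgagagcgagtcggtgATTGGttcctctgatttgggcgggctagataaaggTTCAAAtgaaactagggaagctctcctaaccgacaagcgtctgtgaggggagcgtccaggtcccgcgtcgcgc
Cdk1 (chr10:69352863-69353162, minus strand): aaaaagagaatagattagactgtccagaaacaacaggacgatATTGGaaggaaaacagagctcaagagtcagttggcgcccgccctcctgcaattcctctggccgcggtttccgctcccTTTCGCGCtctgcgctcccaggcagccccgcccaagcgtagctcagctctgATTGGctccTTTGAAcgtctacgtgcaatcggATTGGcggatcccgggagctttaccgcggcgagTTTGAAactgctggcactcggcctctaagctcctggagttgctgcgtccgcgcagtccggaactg
Plk1 (chr7:122159185-122159484, plus strand): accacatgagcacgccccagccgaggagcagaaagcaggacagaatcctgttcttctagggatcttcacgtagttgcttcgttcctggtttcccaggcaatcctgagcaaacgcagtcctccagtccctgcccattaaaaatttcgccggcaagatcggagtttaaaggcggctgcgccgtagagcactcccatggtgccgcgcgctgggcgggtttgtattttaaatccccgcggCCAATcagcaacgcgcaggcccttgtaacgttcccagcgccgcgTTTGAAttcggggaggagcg
Ccne1 (chr7:38107441-38107740, minus strand): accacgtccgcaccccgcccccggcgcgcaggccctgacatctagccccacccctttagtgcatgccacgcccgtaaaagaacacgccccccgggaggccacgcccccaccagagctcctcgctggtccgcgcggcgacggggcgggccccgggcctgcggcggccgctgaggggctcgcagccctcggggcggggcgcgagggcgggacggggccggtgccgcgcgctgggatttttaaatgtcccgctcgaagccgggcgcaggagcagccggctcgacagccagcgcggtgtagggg
Cdc6 (chr11:98907901-98908200, plus strand): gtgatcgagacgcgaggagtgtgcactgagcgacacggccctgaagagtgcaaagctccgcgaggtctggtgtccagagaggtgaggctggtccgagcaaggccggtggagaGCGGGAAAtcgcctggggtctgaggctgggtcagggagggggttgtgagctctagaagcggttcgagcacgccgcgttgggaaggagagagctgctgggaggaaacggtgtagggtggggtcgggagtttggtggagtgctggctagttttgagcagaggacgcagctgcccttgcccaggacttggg
Mcm5 (chr8:75109259-75109558, plus strand): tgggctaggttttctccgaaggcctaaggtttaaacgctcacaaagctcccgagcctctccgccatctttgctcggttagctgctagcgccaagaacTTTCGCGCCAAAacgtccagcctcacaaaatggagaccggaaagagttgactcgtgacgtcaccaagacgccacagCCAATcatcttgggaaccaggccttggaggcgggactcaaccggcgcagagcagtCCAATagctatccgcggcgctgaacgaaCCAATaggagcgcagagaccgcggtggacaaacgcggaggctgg
Top2a held 2 CHR and 6 CCAAT matches, and Cdk1 held 2 CHR, 3 CCAAT and 1 E2F match. Plk1 held 1 CHR and 1 CCAAT match, and the Ccne1 window held 0 matches to any of these letters. Cdc6 held 1 E2F match, and the 2 E2F matches of Mcm5, 1 on each strand, overlap each other beside 3 CCAAT matches. Over the whole table, 17.9% of 32851 promoters of this length held a CHR, 37.4% a CCAAT and 2.26% an E2F match. Of 86 promoters found for 78 of the 93 mitotic genes described here, 60.5% held a CHR, 70.9% a CCAAT and 6.98% an E2F match. Of 107 promoters found for 88 of the 106 replication genes, 15.9% held a CHR, 51.4% a CCAAT and 27.1% an E2F match. A match describes the letters of the promoter and not the binding of a factor.

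Before the results, several libraries stood apart from what their phase labels say. Each pair of libraries was compared gene by gene, and the squared difference was divided by the one that counting noise alone gives, so that 1 is the value for a single library counted again. Late G1 DOX replicate 2 and early G1 DOX replicate 2 had a median ratio of 1.04 over exons and 1.09 over introns. The library labelled late G1 DOX replicate 1 and G2 DOX replicate 1 had 1.08 and 1.05, and the library labelled early G1 DOX replicate 3 and G2 DOX replicate 3 had 1.16 and 1.13. In these pairs 5.41% to 7.85% of the genes lay beyond the 95% limits of counting noise over exons, where 5% would with no other difference. After withdrawal, 2 more such pairs were found, early G1 with G2 in replicate 2 and late G1 with G2 in replicate 3. These 5 pairs all joined different phase labels with the same replicate number and DOX state. The next lowest of the 153 pairs had a ratio of 2.43 over exons, the lowest pair within any 1 group had 4.59, and the highest of all had 27. Pair 2 of the comparison therefore held almost no difference between late and early G1 beyond counting noise. In pair 1 the late G1 library, and in pair 3 the early G1 library, lay close to counting noise from a G2 library of the same number. For these, 6.36% and 7.85% of the genes lay beyond the limits over exons, more than the 5% of counting noise alone. Below, libraries with a ratio under 1.5 are said to match or agree within counting noise, which does not make them identical. What joins these libraries was not tested, and values are given by pair for this reason.

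**Figure D1:**
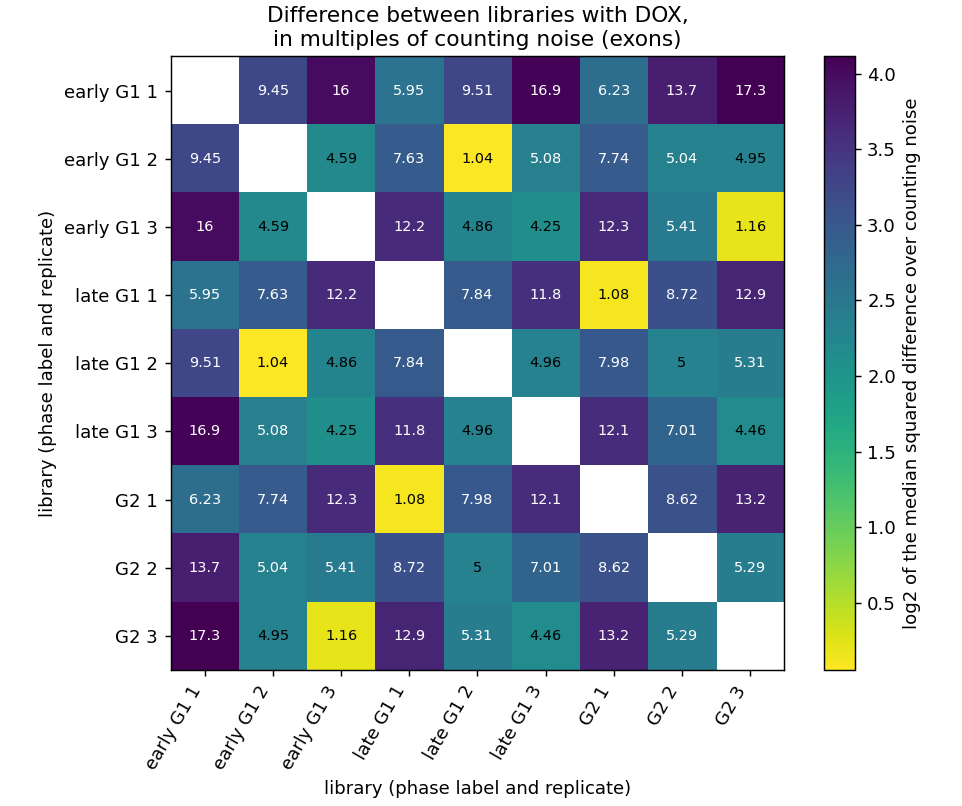
Each cell gives, for 2 of the 9 libraries with DOX, the median over genes of the squared difference in exonic counts divided by counting noise. The axes run through early G1, late G1 and G2, replicates 1 to 3, and the colour is the log2 of the printed ratio. The 3 yellow pairs, at 1.04, 1.08 and 1.16, join different phase labels, while libraries of 1 phase label differ by 4.59 or more.

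The exonic counts of the 6 libraries summed to between 11396469 and 18567561 per library and the intronic ones to between 8238640 and 10293271. The ES cell genes Pou5f1, Sox2, Nanog, Klf4 and Tfcp2l1 were present in all 6. The library early G1 DOX replicate 1 differed most from the others, at 5.95 to 17.3 times counting noise from the other 8 libraries with DOX.

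No gene passed the test between late and early G1 with DOX. Of 14092 genes tested over exons, 0 (0%) had an edgeR adjusted p under 0.05. The lowest adjusted p was 0.987, and 424 genes (3.01%) had an unadjusted p under 0.05, of which 185 were higher and 239 lower in late G1. DESeq2 with the same design called 0 genes too, with 377 at an unadjusted p under 0.05. The fit pooled 18 libraries with the replicate number as a block, which left 10 residual degrees of freedom and a biological coefficient of variation of 0.115. The same fit called 568, 1274 and 1580 genes for DOX withdrawal in early G1, late G1 and G2. It took the libraries of the 5 pairs within counting noise as separate ones. How far those libraries are independent was not tested, so the degrees of freedom, the spread and these counts rest on the labels.

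The precision bounds what the 3 pairs could show. The median standard error of a log2 change was 0.144, and the median gene's 95% interval reached 0.304 to either side of its value. For 12019 genes (85.3%) the interval lay within a 2-fold change in either direction, and for 9643 genes (68.4%) within a 1.5-fold change. The median size of the log2 change was 0.105. A log2 change beyond 1 in either direction was measured for 117 genes, of which 1 had a mean of at least 2 log2 CPM (CPM is the count of a gene scaled to a common library total with TMM). These intervals carry the libraries as labelled, the pairs within counting noise included.

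**Figure D2:**
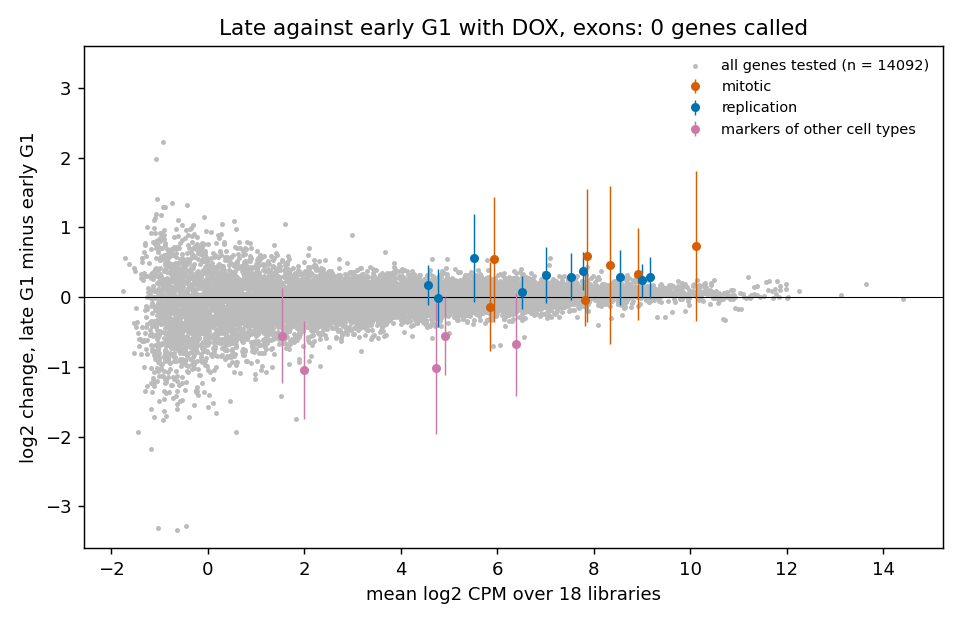
Each grey point is 1 of the 14092 genes tested over exons, with its mean log2 CPM over 18 libraries on the x axis and its log2 change, late G1 minus early G1 with DOX, on the y axis. Coloured points are genes named in the text, with 95% intervals from edgeR. Most genes at high counts lie close to 0. Among the coloured genes, the only ones drawn with intervals, the widest intervals at high counts belong to mitotic genes such as Top2a.

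Counts of genes by the sign of their pairs give the background for the lists that follow. Late G1 lay above early G1 in all 3 pairs for 2102 genes (14.9% of those tested) and below in all 3 for 1926 (13.7%). The groups did not overlap, with late G1 higher, for 308 genes (2.19%), and with late G1 lower for 338 (2.4%).

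Ccna2 itself, the gene behind the sorting reporter (chr3:36463786-36470918 in mm9, minus strand), overlapped between the groups. It had 410, 296 and 336 CPM in late G1 replicates 1 to 3, against 257, 311 and 370 CPM in early G1. Late G1 was the higher in pair 1 and early G1 in pairs 2 and 3. The log2 change was 0.14 ± 0.15 (SE, edgeR adjusted p = 0.987), and without pair 1 it was -0.10. In G2 with DOX the gene had 421, 462 and 388 CPM, of which 388 lay below late G1 replicate 1. The transcript level does not measure the reporter protein by which the cells were sorted.

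Esrrb, the receptor that the transgene supplies (chr12:87702066-87862578 in mm9, plus strand), was read at 323, 286 and 341 CPM in late G1, against 203, 278 and 247 CPM in early G1. The groups did not overlap, and late G1 was the higher in 3 of 3 pairs, by 0.04 on the log2 scale in pair 2. The log2 change was 0.39 ± 0.12 (SE), with an edgeR unadjusted p of 0.00524 and an adjusted p of 0.987. Over introns, where a cDNA transgene usually has no sequence, the level was 117, 124 and 116 CPM in late G1, against 118, 118 and 110 CPM in early G1, a log2 change of 0.05 ± 0.10 (SE). After withdrawal the exonic level was 160, 162 and 173 CPM in late G1, against 140, 193 and 155 CPM in early G1. Reads of the transgene and of the Esrrb locus cannot be told apart here.

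**Figure D3:**
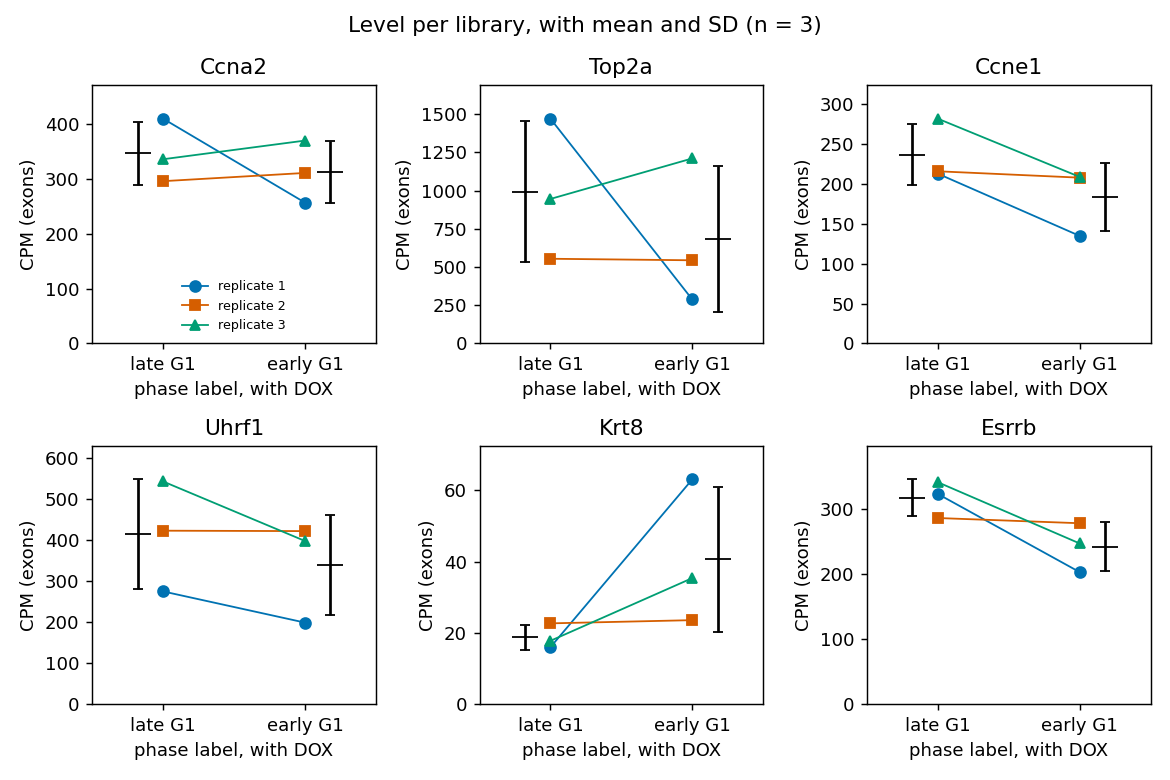
Points give the CPM over exons of 6 genes in each library, late G1 left of early G1 with DOX, with lines joining same-numbered libraries and black bars the mean and SD (n = 3). Replicate 2 is nearly flat in each panel, Top2a is higher in late G1 in pair 1 and lower in pair 3, and Krt8 is lower in late G1 in all 3 pairs.

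The mitotic genes lay on opposite sides in pairs 1 and 3. Of 93 genes in 5 lists (cyclins and kinases, mitotic exit, spindle, kinetochore and condensin), all 93 were higher in late G1 in pair 1, 46 in pair 2 and 11 in pair 3. The median differences were 0.69, -0.001 and -0.30 on the log2 scale. Across the 3 pairs 81 of 93 log2 changes were positive, with a median of 0.14 against 0.004 for all genes tested, and 0 were called (lowest adjusted p 0.987 by edgeR, 1 at an unadjusted p under 0.05). The median was 0.21 without pair 2, -0.17 without pair 1, 0.37 without pair 3 and 0.12 without both G1 libraries that matched a G2 library. The last setting left only pair 2 complete, so it also set late G1 replicate 3 against early G1 replicate 1. Their mean level was 6.74, 6.35 and 6.57 log2 CPM in late G1 replicates 1 to 3, against 5.95, 6.35 and 6.90 log2 CPM in early G1. In G2 it was 6.76, 7.16 and 6.96 log2 CPM.

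**Figure D4:**
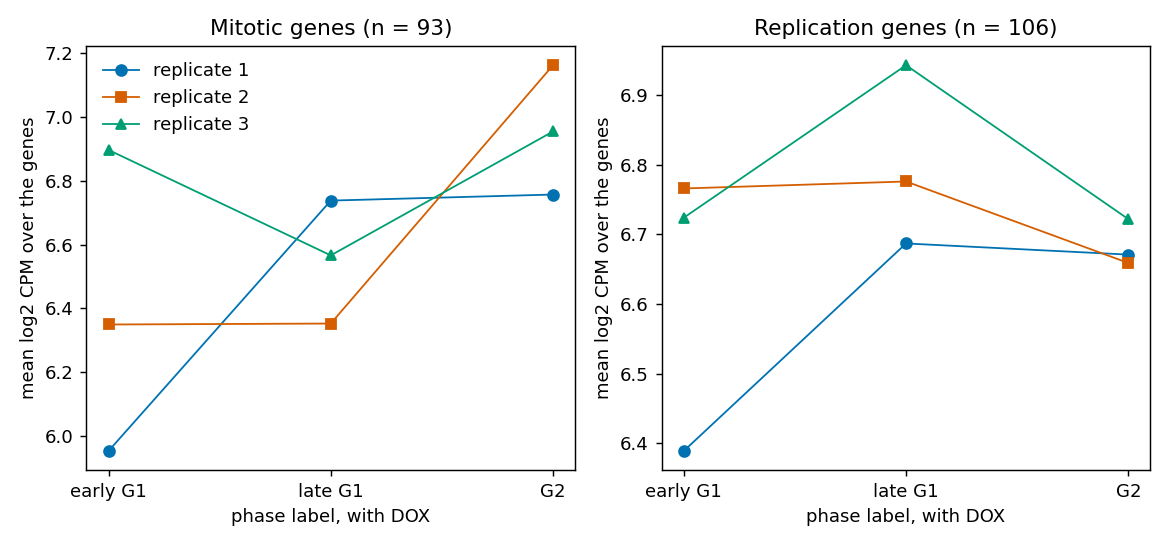
Each point is the mean log2 CPM over exons of the 93 mitotic genes (left) or the 106 replication genes (right) in 1 library with DOX, by phase label in the order early G1, late G1 and G2, with lines joining same-numbered libraries. For the mitotic genes, late G1 lies above early G1 in replicate 1, below it in replicate 3 and level with it in replicate 2.

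Among regulators of mitosis, Cdk1 had 309, 116 and 193 CPM in late G1, against 72.8, 114 and 249 CPM in early G1. Ccnb1, its cyclin partner, had 607, 310 and 405 CPM in late G1, against 262, 307 and 518 CPM in early G1. Aurkb, the kinase of the chromosomal passenger complex, had 87.2, 31.4 and 54 CPM in late G1, against 20.3, 34.7 and 63.2 CPM in early G1. All 3 genes were more than 2 times as high in late G1 in pair 1 and lower in late G1 in pair 3, and their groups overlapped. The log2 changes were 0.59 ± 0.45 for Cdk1, 0.33 ± 0.31 for Ccnb1 and 0.54 ± 0.42 for Aurkb (SE, edgeR adjusted p = 0.987 each).

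Top2a (chr11:98854260-98885503 in mm9, minus strand), whose promoter is shown above, had 1470, 554 and 945 CPM in late G1, against 288, 544 and 1210 CPM in early G1. Its log2 change was 0.73 ± 0.51 (SE), with a 95% interval of -0.34 to 1.81. Cenpf, a kinetochore protein of G2 and mitosis, had 314, 130 and 221 CPM in late G1, against 63.3, 130 and 415 CPM in early G1. Both genes had their lowest level in early G1 replicate 1. In pair 3 late G1 was the lower, with log2 differences of -0.36 for Top2a and -0.91 for Cenpf.

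Genes of mitotic exit were the mitotic list with the lowest median, 0.05 over 16 genes, with pair medians of 0.56, -0.02 and -0.58. Plk1, the Polo kinase of the first list, had 35.4, 34 and 46.9 CPM in late G1, against 20.8, 34.7 and 83.3 CPM in early G1. Cdc20, an activator of the anaphase-promoting complex, had 218, 194 and 212 CPM in late G1, against 161, 195 and 302 CPM in early G1. In both genes the highest of the 6 libraries was early G1 replicate 3, the one that matched a G2 library within counting noise. The other medians were 0.18 for 20 cyclins and kinases, 0.13 for 23 spindle genes, 0.15 for 22 kinetochore genes and 0.19 for 12 condensin genes.

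Genes of DNA replication were higher in late G1 in pairs 1 and 3 and nearly level in pair 2, without passing the test. Over 106 genes (E2F factors, licensing, forks, nucleotide supply and recombination) 99 log2 changes were positive, 93, 60 and 92 were higher in pairs 1, 2 and 3, and the median was 0.18. The pair medians were 0.33, 0.008 and 0.23. In all 3 pairs 53 genes (50%) were higher, against the 14.9% of all genes tested, and 2 were lower. By edgeR 0 were called, the lowest adjusted p was 0.987, and 24 had an unadjusted p under 0.05. The median was 0.28 without pair 2, 0.13 without pair 1, 0.16 without pair 3 and 0.22 without both G1 libraries that matched a G2 library. In the last of these settings only pair 2 was complete. Their mean level was 6.69, 6.78 and 6.94 log2 CPM in late G1, against 6.39, 6.77 and 6.72 log2 CPM in early G1. In G2 with DOX it was 6.67, 6.66 and 6.72 log2 CPM. The lowest of these levels was that of early G1 replicate 1.

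Within replication, the 29 genes of forks and chromatin assembly were all on the positive side, with a median of 0.25. Pcna, the sliding clamp, had 598, 565 and 687 CPM in late G1, against 474, 572 and 477 CPM in early G1, and Uhrf1, which carries DNA methylation through replication, had 275, 423 and 543 CPM in late G1, against 199, 422 and 398 CPM in early G1. Of 28 licensing and firing genes 25 were positive (median 0.19). Mcm5 had 491, 604 and 646 CPM in late G1, against 383, 591 and 509 CPM in early G1, a log2 change of 0.24 ± 0.11 (SE, edgeR unadjusted p = 0.0457, adjusted p = 0.987). Cdc6 had 136, 138 and 173 CPM in late G1, against 97.5, 139 and 122 CPM in early G1, while Cdt1, the other loader of the helicase, had 91, 85.3 and 96.4 CPM in late G1, against 75.4, 87.3 and 96.4 CPM in early G1. In each of these genes replicate 2 differed little between the groups, and the ranges of the groups overlapped.

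Nucleotide supply had 18 of 19 genes on the positive side (median 0.14), among them Rrm2, the regulated subunit of ribonucleotide reductase, at 159, 182 and 237 CPM in late G1, against 121, 175 and 172 CPM in early G1. Recombination and checkpoint genes had 17 of 18 (median 0.15), and E2F factors and partners 10 of 12 (median 0.15), among them E2f1 at 22.6, 29.5 and 27.1 CPM in late G1, against 17.7, 28.2 and 24.9 CPM in early G1. Most of these small differences came from pairs 1 and 3, with pair medians of 0.24, -0.003 and 0.19 for nucleotide supply and 0.34, 0.003 and 0.10 for recombination.

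The replication histones differed between the pairs. Of 60 genes tested 57 had a positive log2 change, with a median of 0.16, but the pair medians were -0.05, 0.008 and 0.51, and 22, 39 and 60 of them were higher in pairs 1, 2 and 3. Hist1h1b, a linker histone, had 29.4, 53.4 and 88.5 CPM in late G1, against 20.6, 54.2 and 38.6 CPM in early G1. The summed level of the 62 histone genes was 32100, 33200 and 34700 CPM in late G1, against 34800, 32900 and 24900 CPM in early G1. The single low library was early G1 replicate 3. Near-identical copies make these genes uncertain one by one, and mRNAs of this class mostly lack the poly(A) tail on which an mRNA kit relies.

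No regulator of G1 passed the test. Of 22 G1 cyclins, kinases and inhibitors, 14 were positive and 0 were called, with a median of 0.13 and pair medians of 0.19, 0.01 and 0.06. Ccne1, the cyclin that drives entry into S phase, had the largest log2 change of the cyclin genes named here. It had 213, 216 and 282 CPM in late G1, against 135, 208 and 209 CPM in early G1, with no overlap and a log2 change of 0.37 ± 0.13 (SE, edgeR unadjusted p = 0.0115, adjusted p = 0.987). Its paralog Ccne2 had 26.7, 26.5 and 26.8 CPM in late G1, against 25.8, 28.4 and 26.8 CPM in early G1. Ccnd1, a cyclin of the growth factor response, had 91.3, 68.2 and 119 CPM in late G1, against 61.3, 71.1 and 115 CPM in early G1, and Ccnd3, of the same family, had 149, 173 and 211 CPM in late G1, against 126, 174 and 184 CPM in early G1. Both were below early G1 in pair 2. The inhibitor genes Cdkn1a and Cdkn1b, which encode p21 and p27, had log2 changes of 0.21 ± 0.16 and -0.03 ± 0.10 (SE).

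Of the pluripotency genes none was called. The naive list (22 genes, of which Esrrb, the gene of the transgene described above, is 1, median 0.02, pair medians 0.25, 0.01 and -0.08) and the core list (14 genes, median -0.02) each had 0 called. Pou5f1, which encodes Oct4, had 1470, 1410 and 1380 CPM in late G1, against 1340, 1410 and 1290 CPM in early G1, a log2 change of 0.08 with a 95% interval of -0.10 to 0.25. Nanog had 176, 314 and 280 CPM in late G1, against 151, 312 and 313 CPM in early G1, and Sox2 had 95.7, 154 and 207 CPM in late G1, against 104, 158 and 195 CPM in early G1. For both, the replicate numbers differed more than the groups did, with replicate 1 the lowest in late and in early G1. Klf4 and Tfcp2l1, targets of LIF signalling, had log2 changes of -0.01 ± 0.17 and 0.03 ± 0.10 (SE).

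**Figure D5:**
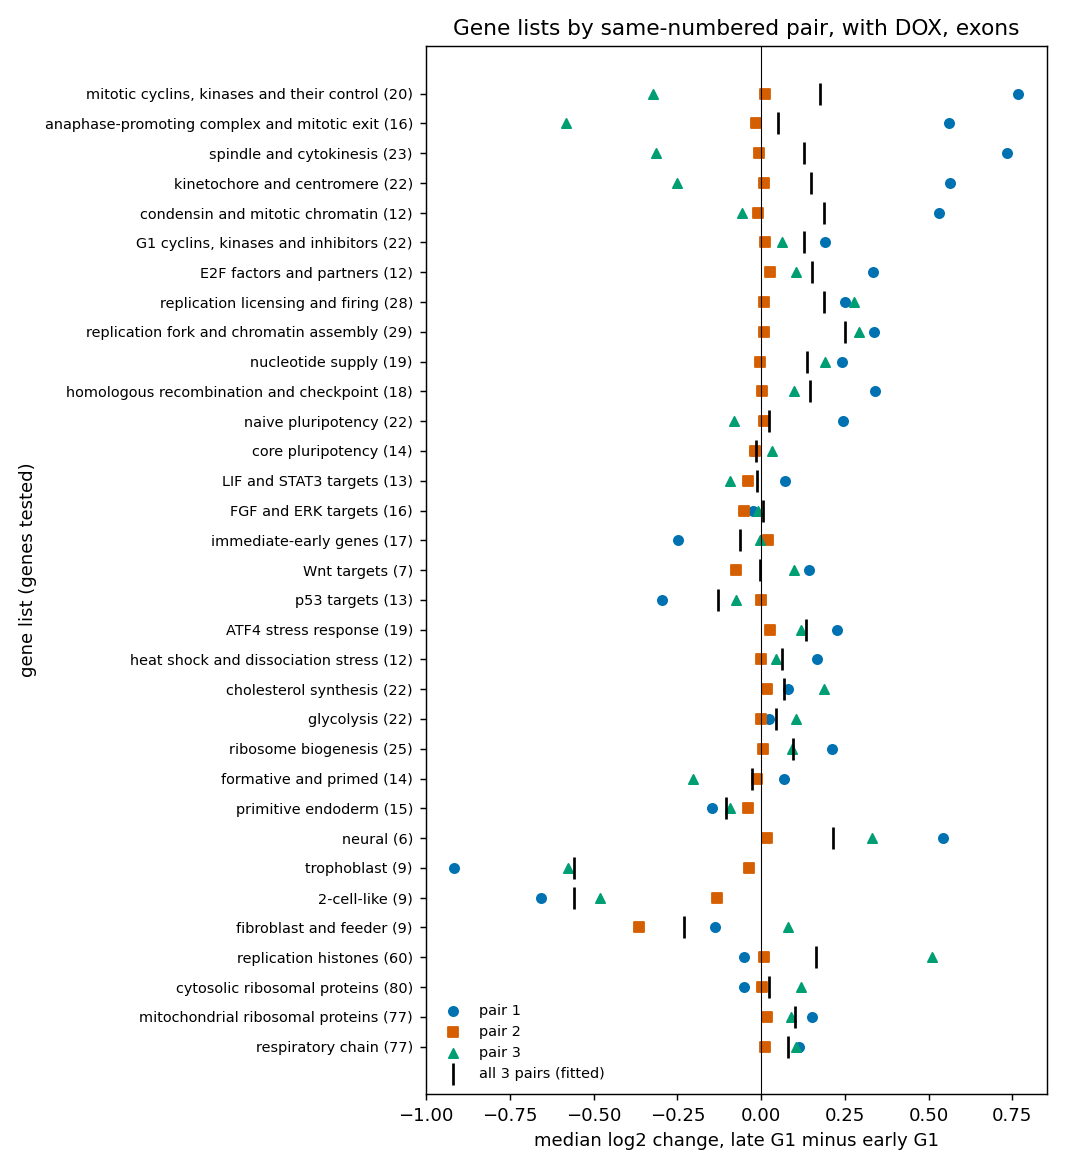
Each row is a gene list with at least 5 genes tested. Points give the median log2 difference over exons, late G1 minus early G1 with DOX, in pairs 1, 2 and 3, and the black bar the median of the fitted changes. Pair 2 lies near 0 for most lists, the mitotic lists have pairs 1 and 3 on opposite sides, and the replication lists apart from the histones have both on the positive side.

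Signalling and stress lists differed in sign, with 0 genes called in any by edgeR. LIF and STAT3 targets (13 genes) had a median of -0.01, FGF and ERK targets (16 genes) 0.006, Wnt targets (7 genes tested) -0.003 and heat shock genes (12 genes) 0.06. Immediate-early genes, which growth factors and handling switch on within minutes, had a median of -0.06 over 17 genes. Fos, a subunit of AP-1, had 25.1, 22.3 and 18.3 CPM in late G1, against 31.7, 24.2 and 26.3 CPM in early G1, a log2 change of -0.32 ± 0.14 (SE, edgeR unadjusted p = 0.0289, adjusted p = 0.987). Myc, which promotes growth and cycling, had 5.81, 7.31 and 8.63 CPM in late G1, against 6.73, 8.75 and 5.75 CPM in early G1. Targets of p53 had a median of -0.13 over 13 genes, with 10 negative and pair medians of -0.30, 0.001 and -0.07, while the ATF4 response to amino acid shortage had 0.13 over 19 genes, with 16 positive and pair medians of 0.23, 0.03 and 0.12.

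Growth and metabolic lists leaned to the positive side over exons by small amounts, with 0 genes called in any. Asns, which encodes asparagine synthetase and belongs to the ATF4 list, had 748, 828 and 750 CPM in late G1, against 657, 822 and 707 CPM in early G1. Mitochondrial ribosomal proteins had a median of 0.10 (69 of 77 positive), the respiratory chain 0.08 (65 of 77) and ribosome biogenesis 0.10 (22 of 25). Cholesterol synthesis had 0.07 (20 of 22), glycolysis 0.05 (13 of 22) and cytosolic ribosomal proteins 0.03 (58 of 80). The pair medians of cytosolic ribosomal proteins were -0.05, 0.004 and 0.12. Ribosomal proteins summed to 125000, 105000 and 102000 CPM in late G1, against 134000, 105000 and 97900 CPM in early G1. Over introns the medians were -0.003 for the respiratory chain (35 of 74 positive) and -0.009 for glycolysis (10 of 21). They were 0.06 for mitochondrial ribosomal proteins (50 of 72), 0.01 for ribosome biogenesis (14 of 23), 0.04 for cholesterol synthesis (13 of 22) and 0.01 for cytosolic ribosomal proteins (40 of 73).

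Markers of other cells were measured in the same libraries, and those of trophoblast, the lineage of the placenta, and of 2-cell-like cells, a rare state that resembles the early embryo, were the lists with the lowest medians. Trophoblast markers (9 of 11 tested, 8 negative) had a median of -0.56, with pair medians of -0.917, -0.0366 and -0.575. They summed to 71, 94 and 79.4 CPM in late G1, against 166, 95.1 and 119 CPM in early G1. The keratin gene Krt8 (chr15:101827141-101834773 in mm9, minus strand) had 16, 22.7 and 17.8 CPM in late G1, against 63.1, 23.6 and 35.4 CPM in early G1, with no overlap between the groups. Its log2 change was -1.02 ± 0.45 (SE, edgeR unadjusted p = 0.0357, adjusted p = 0.987). Krt18, its filament partner, had 28.5, 32.3 and 26 CPM in late G1, against 64, 33.3 and 34.8 CPM in early G1. Both keratins were highest in early G1 replicate 1, and together they made up most of the sum of the list in every library compared. Leaving out a library or pair gave log2 changes of -1.49 to -0.53 for Krt8 and -0.82 to -0.22 for Krt18, and list medians of -0.92 (without late G1 replicate 2) to -0.36 (without pair 1). Without both G1 libraries that matched a G2 library the list median was -0.13, with only pair 2 complete. Introns gave log2 changes of -0.17 ± 0.28 for Krt8 and 0.004 ± 0.34 for Krt18 (SE), with both signs among the pairs of each, and a median of -0.17 over 5 genes of the list.

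The 2-cell-like markers (9 tested, 8 negative) had a median of -0.56, with pair medians of -0.658, -0.132 and -0.481. They summed to 189, 223 and 425 CPM in late G1, against 444, 232 and 573 CPM in early G1. Zscan4c, a gene of this state with near-identical neighbours, had 40.5, 52 and 106 CPM in late G1, against 113, 55.3 and 149 CPM in early G1. Dux, which encodes a factor that switches the state on, had 1.91, 1.6 and 2.92 CPM in late G1, against 3.09, 2.6 and 3.69 CPM in early G1. These genes were lower in late G1 in 3 of 3 pairs with overlapping groups, at log2 changes of -0.68 ± 0.35 and -0.56 ± 0.32 (SE). Leaving out a library or pair gave list medians of -0.72 (without pair 3) to -0.32 (without pair 1). Over introns the median was -0.77 over 7 genes, with pair medians of -1.71, 0.29 and -0.72. In bulk libraries fewer cells of a type and less RNA per cell cannot be told apart.

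Primitive endoderm markers (15 tested, 11 negative) had a median of -0.11 and summed to 660, 799 and 890 CPM in late G1, against 642, 798 and 933 CPM in early G1. Fibroblast and feeder markers were mixed, with 6 of 9 negative, 7 of 9 higher in late G1 in pair 3 and a median of -0.23, which ran from -0.63 without early G1 replicate 3 to 0.02 without pair 1. They summed to 491, 503 and 496 CPM in late G1, against 543, 501 and 492 CPM in early G1. Tagln, a smooth muscle and fibroblast gene of that list picked after its values were seen, had 3.3, 2.18 and 2.61 CPM in late G1, against 9.02, 3.38 and 4.7 CPM in early G1. It did not overlap between the groups, at a log2 change of -1.04 ± 0.33 (SE, edgeR unadjusted p = 0.00595, adjusted p = 0.987). Of the 9 genes tested in that list, 2 were lower in late G1 in all 3 pairs, Tagln among them, and 2 were higher in all 3. Neural markers summed to 178, 152 and 156 CPM in late G1, against 129, 152 and 149 CPM in early G1, mesendoderm markers to at most 7.6 CPM in any of the 6, and formative and primed markers to 460 to 582 CPM. The part of these cells in the results above was not tested.

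Introns, which report mostly unspliced transcripts, gave the same count. Of 14075 genes tested 0 (0%) passed by edgeR, with 529 (3.76%) at an unadjusted p under 0.05 and a lowest adjusted p of 0.999, and DESeq2 called 0, with 376 at an unadjusted p under 0.05. Late G1 was above early G1 in all 3 pairs for 1864 genes (13.2%) and below for 1842 (13.1%). The median standard error was 0.165. Mitotic genes had a median of 0.09 over 92 genes, with pair medians of 0.24, 0.008 and 0.007, so the lower level of late G1 in pair 3 over exons had no counterpart of that size over introns. Replication genes had a median of 0.08 over 105 genes, with pair medians of 0.09, 0.04 and 0.13, and 34 of them (32.4%) were higher in all 3 pairs.

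The smallest intronic p-values belonged to Dpp9 (a dipeptidyl peptidase, chr17:56326104-56358312 in mm9) and Ddx55 (a DEAD-box RNA helicase, chr5:125002872-125019669 in mm9), both picked after their values were seen. Dpp9 introns had 18.9, 17 and 16.3 CPM in late G1, against 54.7, 15.6 and 27.3 CPM in early G1. Ddx55 introns had 59.6, 38.7 and 51.6 CPM in late G1, against 24.5, 36.1 and 22.3 CPM in early G1. The log2 changes were -0.82 ± 0.20 for Dpp9 and 0.86 ± 0.21 for Ddx55 (SE, edgeR unadjusted p = 0.000485 and 0.000527, adjusted p = 0.999 each). Without early G1 DOX replicate 2 Dpp9 was called (edgeR adjusted p = 0.0182), and in the 6 libraries alone Ddx55 was (0.0354). Pair 2 differed by 0.13 and 0.10 on the log2 scale for Dpp9 and Ddx55, and their exonic log2 changes were 0.03 ± 0.13 and 0.10 ± 0.12.

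Over exons, 6 genes with small unadjusted p-values and a mean of at least 2 log2 CPM are given, picked after their values were seen. They were taken from both directions and do not follow the order of p. Hecw2, Sh3bgrl, Fzd2 and Cfap97, all lower in late G1, had smaller p-values than Kntc1 by edgeR, as did Esrrb, which was higher. F8a had 4.82, 4.03 and 3.04 CPM in late G1, against 8.79, 4.77 and 4.64 CPM in early G1 (log2 change -0.59 ± 0.17). Pon2, a paraoxonase, had a log2 change of -0.61 ± 0.18, and Napb, a vesicle fusion factor, of -0.54 ± 0.16. Meaf6, a subunit of histone acetyltransferase complexes, had 11.1, 9.66 and 10.2 CPM in late G1, against 7.04, 8.15 and 8.02 CPM in early G1 (log2 change 0.42 ± 0.13). Cep152, a scaffold for centriole duplication, had 0.41 ± 0.13, and Kntc1, of the kinetochore complex that recruits dynein, had 0.30 ± 0.10 (SE throughout). All 6 differed the same way in 3 of 3 pairs, and each had an edgeR adjusted p of 0.987.

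After withdrawal of DOX the same phases were compared in libraries not shared with those above. Late against early G1 without DOX had 0 genes called by edgeR over exons, with 714 (5.07%) at an unadjusted p under 0.05. The difference between the change with DOX and the change after withdrawal was called for 0 of 14092 genes over exons (0%, 135 at an unadjusted p under 0.05 by edgeR, and 0 called and 96 by DESeq2). Over introns it was called for 0 of 14075 (0%, 204 at an unadjusted p under 0.05). Pair medians of the replication genes were 0.33, 0.008 and 0.23 with DOX, and 0.11, 0.31 and 0.20 after withdrawal. Those of the mitotic genes were 0.69, -0.001 and -0.30 with DOX, and 0.02, -0.25 and 0.34 after withdrawal. The medians of the trophoblast and 2-cell-like lists were -0.56 and -0.56 with DOX, and -0.79 and -0.85 after withdrawal. Averaged over both DOX states, 0 genes were called by edgeR, with 1255 at an unadjusted p under 0.05, and 101 of the 106 replication genes were positive.

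G2 with DOX, of which replicates 1 and 3 matched a G1 library within counting noise, was called apart from neither G1 group by edgeR (0 genes each, with 931 at an unadjusted p under 0.05 against early G1 and 531 against late G1).

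Genes beside Esrrb binding sites were looked at as a group. The authors' peak list holds 1980 peaks in a category called Bookmarked and 12579 in one called Lost. Of 1188 genes tested whose start was the nearest to a Bookmarked peak within 50 kb, 0 were called, 57.1% had a positive log2 change and the median was 0.03. For the 236 genes tested that were nearest to a class 1 Bookmarked peak, 50.4% were positive and the median was 0.0029. Of 4014 genes nearest to Lost peaks alone 0 were called, 52% were positive and the median was 0.006. The remaining 8890 genes were nearest to no such peak, though they can still lie within 50 kb of one. Of these 0 were called, 50% were positive and the median was -0.0002. Among all genes tested 51.1% were positive. By edgeR, 22, 108 and 293 genes of the Bookmarked, Lost and remaining sets had an unadjusted p under 0.05, which is 1.85%, 2.69% and 3.3%. The pair medians of genes beside Bookmarked peaks were 0.07, -0.004 and -0.002, so the positive median came from pair 1. Within 10 kb instead, 59.7% of 680 genes beside Bookmarked, 55.7% of 131 beside class 1 and 55.4% of 2561 beside Lost peaks alone were positive. Their medians were 0.0321, 0.0254 and 0.0172, with 0 called in each and 49.6% positive among the remaining genes. Pair 1 had the largest pair median in each, at 0.0825, 0.076 and 0.055.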

How the data were processed

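RNA-seq libraries were made with a stranded mRNA kit from sorted cells, per the labels' protocols. Tools named in the submitters' processing notes, with no role given, are CASAVA 1.8, Bowtie and DESeq2, and the build is mm9. The authors deposited raw read counts per RefSeq transcript, 1 table for exons and 1 for introns, per the file headers. The sources used here give no counter, annotation version or strand rule, which leaves near-identical families and genes that overlap, antisense ones included, uncertain. Exons cover 20300 genes and introns 17916, followed by 2377 blank lines. In both, 27 symbols turned into dates were restored through RefSeq accessions (GRCm38.p6, names only). Peak positions and classes are the authors'. The 16 columns of peak heights were not used, and the ChIP-seq libraries were not analysed here otherwise.

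The 18 RNA-seq libraries entered 1 fit of 6 group means with the replicate number as a block (edgeR 4.0.16, R 4.3.3, filterByExpr defaults, TMM, quasi-likelihood F test, Benjamini-Hochberg adjustment at 0.05 over all genes tested), which was tested on simulated data. The simulated libraries were drawn separately, with none matched across phase labels, so that run does not cover the matched pairs seen here. CPM are scaled by TMM, and pair values are differences of log2 CPM with a prior count of 2. An SE is the size of the log2 change divided by the root of the F statistic. Agreement of libraries was measured over genes with at least 20 counts in the pair. The block was used because the comparison is defined by same-numbered pairs. Deviations from the group means correlated at 0.525, 0.35 and 0.468 in pairs 1, 2 and 3 over exons, the second of these between libraries that agree within counting noise. Each Esrrb peak was given to the gene of the exonic table whose start (mm9) was nearest, up to 50 kb away, or 10 kb where stated.

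The comparison, lists and tests were chosen with earlier results of these data known. The rule for named genes took the largest changes among the genes called. It named none here, since 0 were called, and no promoter either. The genes given are Ccna2, Esrrb, list members chosen for their role with values in view, and genes of small p. Alternatives were other scalings and filters, DESeq2 1.42.0, other blocks, fewer libraries, each library or pair left out, and a peak distance of 10 kb.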

Additional observations from a re-analysis of the deposited data

How the results depend on the processing

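Over exons, 0 genes were called between late and early G1 with DOX under every alternative run, by edgeR or DESeq2, with 136 to 936 genes at an unadjusted p under 0.05. The average over both DOX states also had 0 called, with 1255. Without the replicate block 0 genes were called, with 136 at an unadjusted p under 0.05, against 424 with the block. The difference of that change between DOX and withdrawal was likewise called for 0 genes under every alternative run (36 to 346 at an unadjusted p under 0.05). Over introns, counts with each library or pair left out ranged from 0 to 1 genes called by edgeR, the 1 being Dpp9, without early G1 DOX replicate 2 (adjusted p = 0.0182) or without pair 2 (0.0481). The 6 libraries alone called 1 gene, Ddx55 (adjusted p = 0.0354), and the other intronic alternatives called 0. Both genes are nearly level in pair 2, whose libraries agree within counting noise. The cause was not tested. Total counts without scaling moved the median of all genes to 0.13 over introns.

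The sign of 16 named genes turned when a library or pair was left out. Their log2 changes then ranged between -0.10 and 0.33 for Ccna2, -0.20 and 0.72 for Ccnb1, -0.22 and 1.26 for Cdk1, -0.48 and 0.34 for Plk1, -0.20 and 1.17 for Aurkb, -0.28 and 0.22 for Cdc20, -0.57 and 1.37 for Cenpf, and -0.21 and 1.45 for Top2a. For genes near 0 the ranges were -0.10 to 0.025 for Cdkn1b, -0.11 to 0.042 for Ccne2, -0.045 to 0.16 for Cdt1, -0.13 to 0.049 for Sox2, -0.087 to 0.13 for Nanog, -0.18 to 0.15 for Klf4, -0.061 to 0.087 for Tfcp2l1 and -0.25 to 0.30 for Myc. An alternative chosen after seeing the data left out both G1 libraries that matched a G2 library, with only pair 2 complete. There Plk1 was at 0.22, Cdc20 at 0.047, Sox2 at 0.037 and Klf4 at 0.27. Averaged over both DOX states, also chosen after seeing the data, Ccne2 was at 0.096 and Sox2 at 0.056. Nanog was at -0.012 without the replicate block and at -0.026 on total counts, where Tfcp2l1 was at -0.0073. Klf4 was at 0.005 with a block per DOX state, 0.003 in the 6 libraries alone and 0.0024 in the 9 libraries with DOX. None of the named genes was called over exons under any of these alternatives. Over all alternatives the median ran from -0.17 to 0.37 for the mitotic genes, 0.09 to 0.28 for the replication genes, -0.92 to -0.13 for trophoblast markers and -0.76 to -0.32 for 2-cell-like markers. No alternative varied depth. Pair 2, within counting noise, held little difference of its own, so leaving it out took a value near 0 out of the averages. Without pair 2 the median of the replication genes was 0.28, against 0.18 with it. Over exons 784 genes then had an edgeR unadjusted p under 0.05, against 424, with 0 called.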
